A study of Mus musculus with 25 samples.

Results

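The A, D and E cyclins are the activating subunits of the kinases that carry a cell from G1 into DNA replication. The set was chosen by gene name: 7 genes (Ccna1, Ccna2, Ccnd1, Ccnd2, Ccnd3, Ccne1 and Ccne2) of 35561 genes listed in the deposited tables. All 7 were listed among the 34228 genes of the embryo table and 6 among the 25158 genes of the oocyte table, where Ccna1 has no row. Neither table holds a row at 0 in every library.

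The study put a small molecule into the culture medium of mouse oocytes and embryos and read their RNA with Smart-seq2, a full-length cDNA method for single cells. All 25 libraries came from the C57BL/6 strain, and every oocyte and embryo was matured or fertilized in vitro. The 6 groups were MII oocytes with PBS (n = 4) or VCD (n = 5), 2-cell embryos with PBS (n = 4) or VCD (n = 4), and morulae with PBS (n = 4) or VCD (n = 4). MII oocytes had extruded the first polar body after 16 hours of maturation from the germinal vesicle stage. PBS is the buffer control. VCD is the agent as the labels spell it; the labels used here give neither its full name, its dose nor the number of oocytes or embryos in a library. Nothing in the labels ties libraries to separate females or cultures, so each p-value reflects no more than how these libraries vary, which may be technical.

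D cyclins bind Cdk4 and Cdk6 and are made in response to growth signals; with their kinase they phosphorylate the retinoblastoma protein and free E2F factors. E cyclins bind Cdk2 at the start of DNA replication, and A cyclins bind Cdk2 and Cdk1 in S phase and G2. Oocytes carry a store of cyclin mRNA made before maturation. mRNA levels say nothing of protein amount or kinase activity.

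Values are FPKM, in which the authors scaled counts by gene length and library depth, so levels can be compared between genes per length. They are relative to all RNA of a library: fewer cells of a type and less RNA per cell cannot be told apart. Library depth, recovered from the smallest step between values, lay between 15075835 and 20998256 reads. Summed marker genes went with the labelled stages: 7 oocyte markers summed to 7735 to 10725 FPKM in MII oocytes and 28.7 to 60.2 in morulae. Early 2-cell markers (5 of 6 listed) summed to 915 to 1354 FPKM in 2-cell embryos and 6.48 to 45.3 in morulae. The 7 lineage markers summed to 184 to 313 in morulae and 36.8 to 54.1 in 2-cell embryos. In MII oocytes the 5 lineage markers listed summed to 47.5 to 68.97, overlapping the 2-cell range. Single lineage markers did not all follow the stage. Gata3 averaged highest in MII oocytes. With PBS, though not with VCD, Id2 averaged lower in morulae than in 2-cell embryos. The share of all FPKM from mitochondrially encoded genes was 1.82 to 3.49% in MII oocytes, 4.86 to 7.70% in 2-cell embryos and 10.03 to 13.3% in morulae; its part in the stage differences below was not tested. The oocyte and embryo tables were normalized separately, so no test was made across them and oocyte levels stand beside embryo levels as a description.

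In MII oocytes the order of the levels was the same with PBS and VCD: Ccna2, Ccne2, Ccne1, Ccnd3, Ccnd1 and Ccnd2, and no 2 neighbours in that order overlapped in their libraries. In 2-cell embryos Ccna2, Ccne1 and Ccne2 headed the order, and each overlapped its neighbour. Ccnd3 and Ccnd1 followed, overlapping with PBS and apart with VCD, while Ccna1 and Ccnd2 stood at the bottom and overlapped. In morulae Ccne1 took the first place, above Ccna2, Ccne2, Ccnd3, Ccnd1, Ccnd2 and Ccna1, with no overlap between neighbours in either agent group. The plot of levels by library shows the 7 genes side by side.

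**Figure D1:**
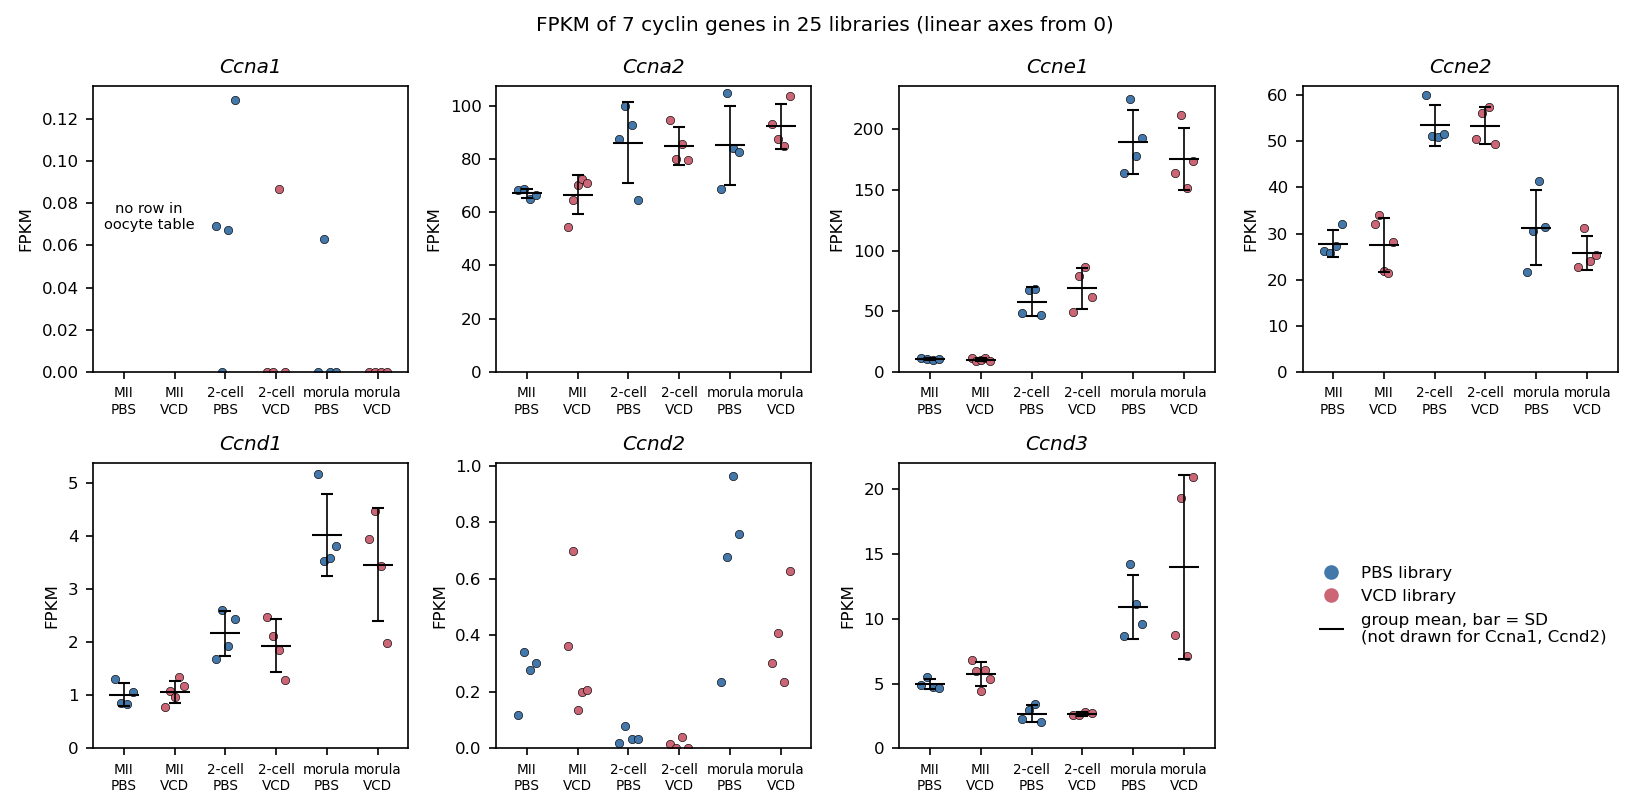
FPKM (vertical axis, linear from 0, a scale of its own in each panel) of 7 cyclin genes in 25 libraries, by stage and agent (horizontal axis). Points are libraries and bars are group means with SD, drawn for the 5 genes other than Ccna1 and Ccnd2; Ccne1 lies between 152 and 225 in morulae, above every 2-cell library (46.7 to 86.7).

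Ccne1 encodes cyclin E1, an activator of Cdk2 at the G1/S boundary (ENSMUSG00000002068, GRCm38 chr7:38097984-38107534, minus strand, protein coding). In MII oocytes it stood at 11.5, 10.2, 9.58 and 10.5 FPKM with PBS and at 11.2, 8.80, 9.52, 11.1 and 9.19 with VCD. In 2-cell embryos it stood at 48.5, 67.7, 68.2 and 46.7 with PBS and at 49.3, 78.7, 86.7 and 61.6 with VCD. In morulae it reached 164, 225, 178 and 193 with PBS and 164, 211, 152 and 174 with VCD. Every morula library lay above every 2-cell library, and PBS and VCD libraries were mixed within each stage. Group means were 57.8 ± 11.8 FPKM (SD, n = 4) in 2-cell embryos and 190 ± 26.2 (SD, n = 4) in morulae with PBS, a 3.28-fold difference in means. With VCD they were 69.1 ± 16.9 (SD, n = 4) and 175 ± 25.7 (SD, n = 4), a 2.54-fold difference. On the log2(FPKM + 1) scale Ccne1 rose by 1.71 with PBS (SE 0.19, limma adjusted p = 2.09e-07) and by 1.35 with VCD (SE 0.19, limma adjusted p = 3.65e-06).

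Ccnd3 encodes cyclin D3, a partner of Cdk4 and Cdk6 (ENSMUSG00000034165, GRCm38 chr17:47505051-47599691, plus strand, 21 annotated transcripts). Its MII libraries read 4.85, 5.52, 4.75 and 4.69 FPKM with PBS and 6.83, 5.99, 4.40, 6.08 and 5.36 with VCD. Its 2-cell libraries read 2.27, 2.97, 3.43 and 2.06 with PBS and 2.53, 2.55, 2.83 and 2.74 with VCD. Its morula libraries read 8.67, 14.3, 11.1 and 9.55 with PBS and 8.76, 19.3, 7.10 and 20.9 with VCD. All 8 morula libraries were above all 8 2-cell libraries. The 2-cell libraries also read below the MII ones, a description only, since the oocyte table was normalized separately. The VCD morulae held 2 libraries near 20 FPKM and 2 below 9, for a mean of 14.01 ± 7.09 (SD, n = 4) beside 10.9 ± 2.46 (SD, n = 4) with PBS. The rise from 2-cell to morula was 1.69 log2 with PBS (SE 0.27, limma adjusted p = 1.89e-05) and 1.90 with VCD (SE 0.27, limma adjusted p = 4.86e-06).

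Ccne1 and Ccnd3 are shown with the sequence before their starts, from RefSeq (build GRCm38.p6; 3 of 7 members, with Ccna1, matched by symbol). The sequences below are the 100 bases nearest upstream of their starts that no annotated exon covers, shown because both genes rose between the embryo stages. Capitals mark GC boxes (GGGCGG on either strand, the letters bound by Sp/KLF factors).
Ccne1, chr7:38107535-38107634, minus strand: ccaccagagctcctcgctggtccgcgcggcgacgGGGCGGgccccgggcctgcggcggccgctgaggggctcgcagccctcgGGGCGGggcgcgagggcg
Ccnd3 distal start, chr17:47504951-47505050, plus strand: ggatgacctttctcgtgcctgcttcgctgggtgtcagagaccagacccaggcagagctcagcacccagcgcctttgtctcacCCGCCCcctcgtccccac
Ccnd3 proximal start, chr17:47593336-47593435, plus strand: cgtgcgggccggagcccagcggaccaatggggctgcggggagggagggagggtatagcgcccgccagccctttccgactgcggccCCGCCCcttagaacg
In the whole 250 bases upstream of the start Ccne1 held 4 GC boxes, the distal Ccnd3 start 2 and the proximal one 1; 32.7% of 32851 promoters of that length hold at least 1. G and C made up 76% of the Ccne1 window, 59.6 and 64.8% of the Ccnd3 windows and a median 52.4% over all promoters. The E2F letters TTTCGCGC, TTTGGCGC and TTTCCCGC, searched on both strands, occur in 1.53% of promoters and in none of these windows. A match is a description of letters and not a measured binding site.

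Ccne2 encodes cyclin E2, the second E-type partner of Cdk2 (ENSMUSG00000028212, GRCm38 chr4:11191351-11204779, plus strand). In MII oocytes it stood at 26.2, 25.8, 27.2 and 32.0 FPKM with PBS and at 32.1, 34.1, 21.8, 21.5 and 28.1 with VCD. In 2-cell embryos it stood at 60.1, 51.1, 50.9 and 51.6 with PBS and at 50.5, 56.1, 57.5 and 49.4 with VCD. In morulae it stood at 21.6, 30.6, 41.5 and 31.5 with PBS and at 22.8, 31.2, 24.1 and 25.4 with VCD. The 2-cell libraries were higher than the morulae in both agent groups and did not overlap them. They also read above the MII libraries, a description only, since the oocyte table was normalized separately. From 2-cell to morula Ccne2 fell by 0.79 on the log2 scale with PBS (SE 0.17, limma adjusted p = 0.000319) and by 1.02 with VCD (SE 0.17, limma adjusted p = 2.22e-05).

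The balance of the 2 E cyclins differed between the stages. The ratio of Ccne1 to Ccne2 FPKM does not depend on how a library was scaled. Differences between tables or stages that act on 1 gene only do not cancel in it and were not tested. Its values across the 2 tables are therefore a description. The ratio was picked after the values were seen and is given with no test. It averaged 0.379 ± 0.0491 (SD, n = 4) with PBS and 0.378 ± 0.1001 (SD, n = 5) with VCD in MII oocytes. In 2-cell embryos it averaged 1.09 ± 0.278 (SD, n = 4) and 1.28 ± 0.232 (SD, n = 4), and in morulae 6.33 ± 1.51 (SD, n = 4) and 6.79 ± 0.359 (SD, n = 4). Over both agents it ran from 0.258 to 0.516 in MII oocytes, from 0.808 to 1.51 in 2-cell embryos and from 4.28 to 7.59 in morulae. No library of a stage reached the range of another stage. The ratio of Ccne1 to Ccna2 was also apart by stage, at 0.130 to 0.206, 0.521 to 1.01 and 1.68 to 2.42. Such a separation is therefore not particular to the 2 E cyclins. The summed FPKM of Ccne1 and Ccne2, unlike their ratio, does depend on scaling. It averaged 117 over 8 2-cell libraries and 211 over 8 morula libraries. In the separately normalized oocyte table it averaged 37.8 over 9 MII libraries, given as a description only.

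**Figure D2:**
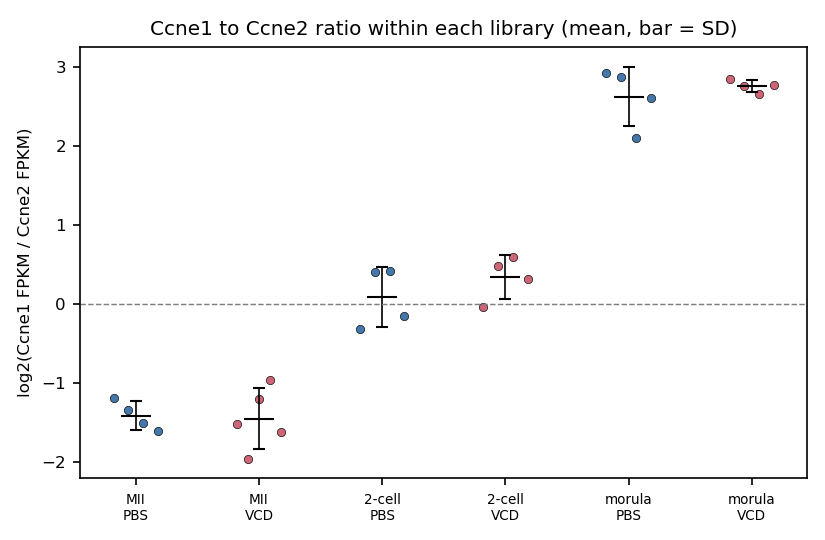
Log2 of the Ccne1 to Ccne2 FPKM ratio (vertical axis) in each library, by stage and agent (horizontal axis); points are libraries, bars are group means with SD and the dashed line marks equal levels. MII libraries lie below the line, 2-cell libraries on both sides of it and morulae at 2.10 or more.

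Ccna2 encodes cyclin A2, the A cyclin of dividing somatic cells (ENSMUSG00000027715, GRCm38 chr3:36564865-36572150, minus strand). Its MII libraries read 68.4, 68.6, 64.8 and 66.5 FPKM with PBS and 54.6, 64.5, 70.2, 72.6 and 70.8 with VCD. Its 2-cell libraries read 87.6, 100, 92.7 and 64.5 with PBS and 94.6, 79.9, 85.7 and 79.5 with VCD. Its morula libraries read 68.9, 105, 84.2 and 82.5 with PBS and 93.3, 87.4, 84.8 and 104 with VCD. The 2 embryo stages overlapped, from 64.5 to 100.02 FPKM in 2-cell libraries and from 68.9 to 105 in morulae. The difference between them was -0.02 log2 with PBS (95% interval -0.34 to 0.31, limma adjusted p = 0.927) and 0.12 with VCD (95% interval -0.21 to 0.44, limma adjusted p = 0.477). With median ratio scaling Ccna2 was called lower in morulae, at -0.56 log2 with PBS (limma adjusted p = 0.00369) and -0.40 with VCD (limma adjusted p = 0.0289).

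Ccnd1 encodes cyclin D1 (ENSMUSG00000070348, GRCm38 chr7:144929931-144939925, minus strand). It read 1.30, 0.851, 0.842 and 1.07 FPKM in MII oocytes with PBS and 0.784, 1.08, 0.977, 1.34 and 1.17 with VCD. It read 1.69, 2.61, 1.94 and 2.44 in 2-cell embryos with PBS and 2.48, 2.11, 1.85 and 1.29 with VCD. It read 5.17, 3.54, 3.59 and 3.81 in morulae with PBS and 3.95, 4.47, 3.44 and 1.98 with VCD. Stages were apart with PBS, while with VCD 1 morula library lay inside the 2-cell range. The rise was 0.66 log2 with PBS (SE 0.19, limma adjusted p = 0.00398) and 0.59 with VCD (SE 0.19, limma adjusted p = 0.00925). With median ratio scaling it was 0.25 (limma adjusted p = 0.235) and 0.21 (limma adjusted p = 0.322), and did not pass.

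Ccnd2 encodes cyclin D2, a D cyclin known from granulosa cells of the ovary (ENSMUSG00000000184, GRCm38 chr6:127125162-127152193, minus strand). It was under 1 FPKM in all 25 libraries and did not pass the filter on low values. It read 0.116, 0.342, 0.277 and 0.301 FPKM in MII oocytes with PBS and 0.360, 0.699, 0.135, 0.199 and 0.208 with VCD. In 2-cell embryos it had 27 reads over the 4 PBS libraries and 9 over the 4 VCD libraries, 2 of which had none. In morulae it read 0.233, 0.678, 0.963 and 0.757 with PBS (457 reads in all) and 0.302, 0.408, 0.236 and 0.628 with VCD (238 reads). Every morula library stood above every 2-cell library. In a fit with no filter on low values Ccnd2 was higher in morulae by 0.65 log2 with PBS (limma adjusted p = 0.000278) and by 0.45 with VCD (limma adjusted p = 0.00536), a scale that understates changes at such low levels. The 10 cumulus and granulosa markers summed to 7.43 to 11.5 FPKM in MII oocytes (9 listed), to 3.81 to 8.98 in 2-cell embryos and to at most 0.238 in morulae. In MII oocytes 1 gene carried the sum: Cyp19a1 averaged 8.85 FPKM with PBS and 8.35 with VCD, and the other 8 listed markers at most 0.474. In each morula group 6 of the 10 were at 0, Fshr, Inha, Has2 and Ptx3 among them in both. The Ccnd2 group means in morulae were 0.658 FPKM with PBS and 0.393 with VCD. The part of cumulus and granulosa cells in the Ccnd2 level was not tested at any stage.

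Ccna1 encodes cyclin A1, the A cyclin known from male germ cells (ENSMUSG00000027793, GRCm38 chr3:55045469-55055501, minus strand). It had 8 reads over the 4 PBS 2-cell libraries, 3 over the VCD ones, 2 over the PBS morulae and 0 over the VCD morulae. That count of 0 allows up to 3 reads over the group, or 0.0254 FPKM, for counting error only. No direction can be read at this depth. Sperm markers (5 of 6 listed) summed to 0.527 to 2.15 FPKM in 2-cell embryos and to at most 0.571 in morulae.

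Between 2-cell embryos and morulae 3 of the 5 members tested rose (Ccne1, Ccnd3 and Ccnd1), Ccne2 fell and Ccna2 did not pass, with PBS and with VCD alike. All genes moved widely between these stages: of 14144 tested, 40.9% were called higher and 44% lower with PBS, and 40.7% and 44.1% with VCD. A count of 4 of 5 members called is near that background and is no result about cyclins as a group. The median of the 5 members was 0.66 with PBS and 0.59 with VCD, beside medians of -0.08 and -0.09 over all genes tested. Median ratio scaling moved the median of all genes to -0.58 with PBS and -0.57 with VCD, and the share of called genes that were higher from 48.2 to 39.7% with PBS and from 48.0 to 39.6% with VCD. Relative to those medians Ccne1 and Ccnd3 were higher and Ccne2 lower, while Ccna2 with PBS (-0.56) stood at the median; Ccnd1, at 0.25 and 0.21, was above it though not called. Ccne1, Ccnd3 and Ccne2 kept their direction and call in each of the 23 alternatives run for them per agent.

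**Figure D3:**
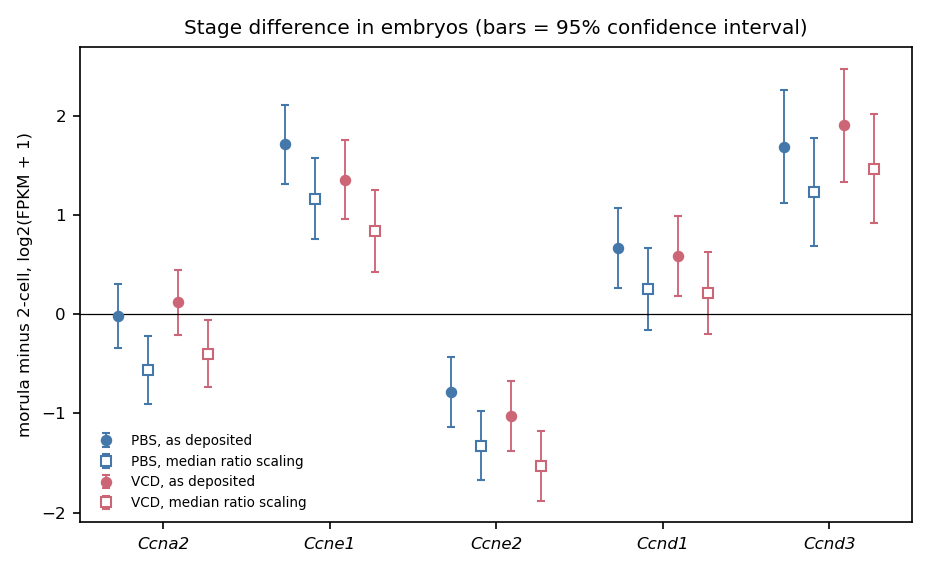
Difference between morulae and 2-cell embryos on the log2(FPKM + 1) scale (vertical axis) for 5 cyclin genes (horizontal axis) with PBS and VCD; bars are 95% confidence intervals from limma. Filled points use the values as deposited and open squares median ratio scaling, under which Ccnd1 (0.25 and 0.21) spans 0 and Ccna2 (-0.56 and -0.40) lies below it.

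Smart-seq2 does not mark strand, and 6 of the 7 members share exon bases with a gene on the opposite strand. Of the exon bases of Ccnd1, 23.4% lie in LTO1, which rose by 1.88 log2 from 2-cell to morula with PBS (limma adjusted p = 8.49e-09). Spread evenly, LTO1 reads would account for 1.05 of 4.03 FPKM in PBS morulae and 0.113 of 2.17 in PBS 2-cell embryos, leaving a 1.45-fold difference with PBS and 1.22-fold with VCD. For Ccnd3 the partner is Bysl (4.11% of exon bases), which rose by 3.58 log2 with PBS (limma adjusted p = 4.58e-13). It would account for 1.74 of 10.9 FPKM in PBS morulae, leaving a 3.56-fold difference with PBS and 4.81-fold with VCD. Exosc9 shares 12.5% of Ccna2 and Ints8 17.4% of Ccne2, and even coverage from them came to at most 4.59% and 3.004% of the member's level in any group. Ccne1 shares no exon base with another gene and none of its 50-base words with the transcripts of another gene. How the authors assigned shared reads is not given in the sources used here. A partner's deposited level may itself hold reads of the member from the shared bases. The accounted levels and the folds left over are therefore rough estimates.

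VCD and PBS libraries were compared within each stage, the contrast the study was built on. None of the 5 members tested passed in MII oocytes, 2-cell embryos or morulae with limma; none had an unadjusted p below 0.05, and voom on recovered reads gave 0 as well. Over all genes 0.0115% of 8715 genes tested were called in MII oocytes, 0% of 11369 in 2-cell embryos and 0.01% of 9959 in morulae, while 245, 391 and 311 genes had an unadjusted p below 0.05. The ranges of VCD and PBS libraries overlapped for every listed member at every stage. The share of all genes with overlapping ranges is not given, so this overlap is a description and no result about cyclins.

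The differences nearest the threshold were those of 3 different members. In MII oocytes Ccnd3 was 0.17 log2 higher with VCD (95% interval -0.08 to 0.42, limma adjusted p = 0.999). In 2-cell embryos Ccne1 was 0.24 higher (95% interval -0.20 to 0.68, limma adjusted p = 0.999). In morulae Ccne2 stood at -0.24 with VCD relative to PBS (95% interval -0.71 to 0.23, limma adjusted p = 0.99997). Over the 5 members the intervals reached from -0.35 to 0.42 log2 in MII oocytes, from -0.50 to 0.68 in 2-cell embryos and from -0.71 to 0.95 in morulae, but they differ in width by member: the narrowest were those of Ccna2 in MII oocytes (-0.21 to 0.18), Ccne2 in 2-cell embryos (-0.24 to 0.24) and Ccne1 in morulae (-0.47 to 0.24). These libraries do not exclude, at the 95% level, a difference inside a member's own interval. Leaving out 1 library moved the 3 estimates named above to between 0.11 and 0.25 (Ccnd3 in MII oocytes; VCD replicates 1 and 3), 0.12 and 0.39 (Ccne1 in 2-cell embryos; VCD replicates 3 and 1) and -0.40 and -0.096 (Ccne2 in morulae; PBS replicates 1 and 3), the library in brackets being the one left out for each end, and none passed. The upper end in morulae is that of Ccnd3 with its 2 high VCD libraries. The effect of VCD in morulae minus that in 2-cell embryos was called for 0% of 14144 genes and for none of the 5 members (limma adjusted p = 0.999 for each; 502 genes and 0 members had an unadjusted p below 0.05). Its largest estimate among members was -0.36 for Ccne1 (95% interval -0.91 to 0.20).

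**Figure D4:**
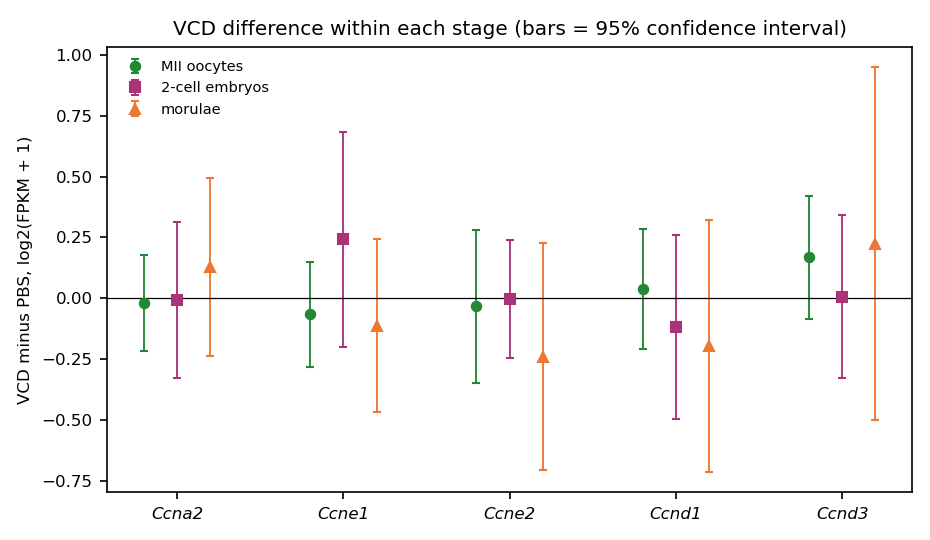
VCD minus PBS on the log2(FPKM + 1) scale (vertical axis) for 5 cyclin genes (horizontal axis) in MII oocytes, 2-cell embryos and morulae; bars are 95% confidence intervals from limma. Every interval spans 0, and the widest, Ccnd3 in morulae, runs from -0.50 to 0.95.

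The rest of the pathway was read from 7 lists of 56 genes, 50 of which passed the filter in the embryo fit. With PBS 21 were higher in morulae, 21 lower and 8 did not pass; with VCD 22, 21 and 7. Over all 14144 genes tested the shares were 40.9% higher and 44% lower with PBS, so these counts lie near the background and are no result about the pathway. Between VCD and PBS 41 of the 56 were tested in MII oocytes, 44 in 2-cell embryos and 43 in morulae, and none was called with limma. The shares of all genes called there were 0.0115%, 0% and 0.01%. With median ratio scaling 19 were higher and 24 lower with PBS, and 18 and 25 with VCD.

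Of the 4 kinase partners listed, Cdk1, Cdk2 and Cdk4 were called higher with both agents and under median ratio scaling, beside 40.9% of all genes called higher with PBS; the fourth, Cdk6, was not tested. Cdk2, the partner of the E and A cyclins, went from 5.24 ± 0.597 FPKM (SD, n = 4) to 23.9 ± 2.91 (SD, n = 4) with PBS, 1.99 log2 (limma adjusted p = 1.77e-08). Cdk4, the partner of the D cyclins, went from 2.46 ± 0.509 (SD, n = 4) to 23.0 ± 4.02 (SD, n = 4), 2.79 log2 (limma adjusted p = 4.26e-10). Cdk1, the mitotic kinase, rose by 1.39 log2 (limma adjusted p = 2.11e-07). Cdk6, the other partner of the D cyclins, had group means of 0.314 to 0.756 FPKM.

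B cyclins, which act with Cdk1 at mitosis, were lower in morulae in all 3 cases and under both scalings. Of all genes 44% were called lower with PBS, and with median ratio scaling 7330 of 14262. With PBS the differences were -0.94 log2 for Ccnb1, -1.22 for Ccnb2 and -1.99 for Ccnb3. Among 6 kinase activators 4 were higher and 2 lower with both agents, beside 40.9% and 44% of all genes with PBS. Mnat1, a subunit of the Cdk-activating kinase, rose by 2.44 and the phosphatase gene Cdc25a by 1.77, while Cdc25b fell by 1.502 (PBS). Cdk7, the catalytic subunit of the Cdk-activating kinase, rose by 0.87.

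Kinase inhibitors were mixed, with 2 of 8 tested higher and 4 lower with PBS, beside 40.9% and 44% of all genes. Wee2, an oocyte kinase that inhibits Cdk1, went from 565 ± 61.0 FPKM (SD, n = 4) in 2-cell embryos to 0.966 ± 0.833 (SD, n = 4) in morulae, -8.25 log2 (limma adjusted p = 6.91e-15). Cdkn1a, which encodes the inhibitor p21, went the other way, from 7.07 ± 2.47 (SD, n = 4) to 62.0 ± 10.1 (SD, n = 4), 2.997 log2 (limma adjusted p = 4.45e-09). Pkmyt1, another inhibitory kinase of Cdk1, fell by 0.55.

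Of 10 pocket protein and E2F genes tested 1 was higher and 6 lower with PBS, beside 40.9% and 44% of all genes. Rb1, the retinoblastoma protein itself, fell by 3.63 log2, E2f5 by 5.93, E2f2 by 2.06 and E2f4 by 1.35. Of 8 G1/S transcripts, most of them genes of DNA synthesis and its licensing, 7 were called higher and 1 (Pcna, named after its value was seen) lower with both agents, beside 40.9% and 44% of all genes with PBS, and 6 (PBS) or 5 (VCD) of 8 were higher with median ratio scaling. Tyms, Tk1, Cdc6 and Rrm1 rose by 4.70, 2.97, 2.93 and 2.17 log2 with PBS. In the degradation list 4 of 12 were higher and 5 lower with PBS, beside the same shares of all genes. Cdc20 and Ube2c, which serve the anaphase-promoting complex, rose by 3.75 and 2.16. Cul1 and Skp1a, which build the SCF ligase, fell by 3.10 and 1.96. All of these differences are morula minus 2-cell with PBS on the log2(FPKM + 1) scale, and each named gene was called in the same direction with VCD and with median ratio scaling.

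**Figure D5:**
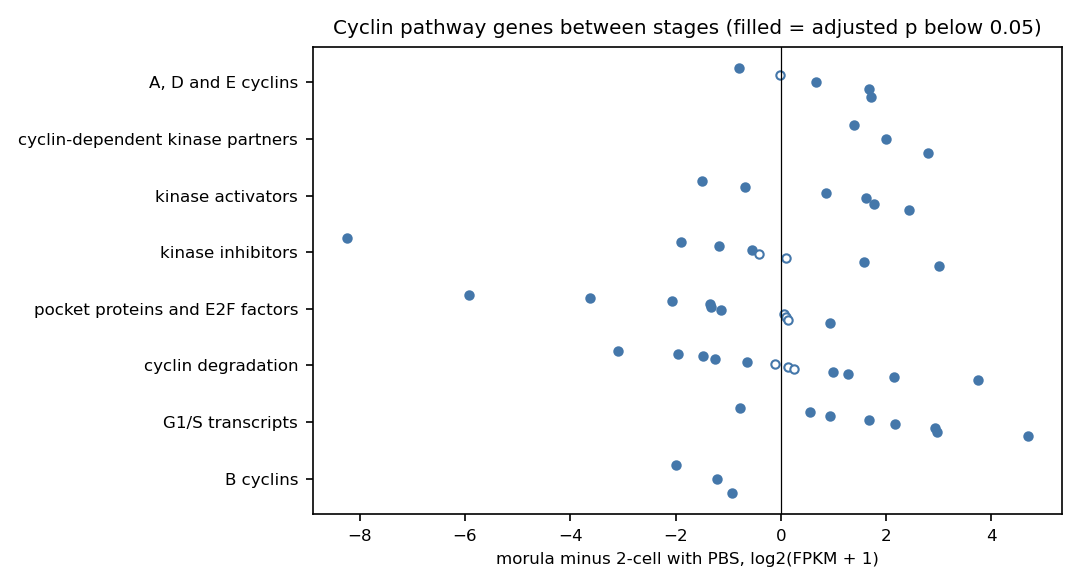
Morula minus 2-cell difference with PBS on the log2(FPKM + 1) scale (horizontal axis) for each tested gene of the cyclins and 7 pathway lists (vertical axis); each point is a gene, filled where the limma adjusted p is below 0.05. All 3 tested kinase partners lie right of 0 and all 3 B cyclins left of it. Of all genes tested 40.9% were called higher and 44% lower.

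Genes whose pattern was most like that of Ccne1, Ccne2 or Ccnd3 were taken over 25 libraries among 8582 genes listed in both tables with a mean of 5 FPKM or more in at least 1 group, as a description. The libraries share stage and table, which drive such correlations. Ccne1 was most like Stac2, Trim43a and Paf1 (Pearson r of 0.995, 0.994 and 0.994); Trim43a has near-identical copies, so its level is uncertain. Ccne2 was most like Adk, Cfl2 and Aven (0.926, 0.922 and 0.918), each highest in 2-cell embryos. Ccnd3 was most like Ddx19b, Atp13a1 and Slc12a7 (0.957, 0.951 and 0.946), each lowest in 2-cell embryos. Among the members themselves r was 0.735 between Ccne1 and Ccna2, 0.188 between Ccne1 and Ccne2 and -0.62 between Ccne2 and Ccnd3.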

How the data were processed

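RNA was measured by Smart-seq2 in 25 libraries of 6 groups. The authors deposited FPKM values in 2 tables, 1 for oocytes and 1 for embryos, normalized separately. Bowtie2 2.2.3 and TopHat2 2.0.12 are named in the submitters' processing notes, as is a chicken genome build, while the deposited gene identifiers are those of mouse; the aligned build is not given in the sources used here. Symbols, coordinates and exon lengths came from GENCODE M21 (GRCm38). Values below 200 reads were whole multiples of 1 read within 0.01 in 90.6 to 93.4% of cases, which gave depth and read numbers; whether these are reads or fragments is not stated.

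Groups were compared with limma 3.58.1 in R 4.3.3 (trend fit, log2(FPKM + 1), genes reaching 1 FPKM in 4 or more of the fitted libraries, Benjamini-Hochberg adjustment over all genes tested, threshold 0.05). VCD was compared with PBS within a stage; stage differences and the difference of VCD effects used all 16 embryo libraries in 1 fit. Ccna1 and Ccnd2 did not pass the filter. Scripts were tested on simulated data. Alternatives changed the pseudocount, filter, scaling, weights, samples and count model. No library pair agreed within sampling noise (mean chi-square per gene at least 9.996). The named pathway genes were, per list, the 4 largest called changes between embryo stages with PBS at 5 FPKM or more, plus every listed kinase partner and B cyclin. The members and lists were chosen with earlier results of these data known. Blood markers (4 of 6 listed in the embryo table) summed to at most 4.34 FPKM in any library. The genes most like Ccna2 are not reported here.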

Additional observations from a re-analysis of the deposited data

Results flagged for a closer look

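In 195 groups of 4 or 5 libraries, 1 per gene named and condition, 15 held a library set apart from the rest by Dixon's criterion; chance marks about 1 in 20 groups. Among members, Ccne2 stood at 60.1 FPKM in PBS 2-cell replicate 1 (others 50.9 to 51.6) and Ccnd1 at 5.17 in PBS morula replicate 1 (others 3.54 to 3.81). Ccna1 stood at 0.0868 FPKM in VCD 2-cell replicate 3 and at 0.0633 in PBS morula replicate 2, where the other libraries of the group had no read. Kinase genes set apart were Cdk2 at 19.5 FPKM in PBS morula replicate 1 (others 24.99 to 25.6), Cdk4 at 0.546 in PBS MII replicate 3 and at 29.0 in PBS morula replicate 3, Cdk7 at 7.73 in PBS MII replicate 3 and at 2.32 in PBS 2-cell replicate 3, and Wee2 at 402 in VCD 2-cell replicate 4 (others 592 to 628). The remaining values were Cdc20 at 255 FPKM in VCD MII replicate 4, Cdc25b at 3.75 in VCD morula replicate 4, Skp1a at 334 in PBS morula replicate 3, and Ube2c at 76.1 in PBS MII replicate 1 and at 70.1 in VCD 2-cell replicate 4.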

How the results depend on the processing

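Of 563 log2 differences of members recomputed under alternatives, 528 kept their direction and side of the threshold. With median ratio scaling Ccnd1 lost its stage call (0.25 with PBS, 0.21 with VCD), Ccna2 gained one with both agents (-0.56 with PBS, and -0.40 with VCD, where it also changed sign), and Ccnd3 turned to -0.0092 between VCD and PBS in 2-cell embryos; the cause was not tested. With array weights Ccna2 turned to 0.0014 between stages with PBS, and VCD minus PBS in 2-cell embryos turned to -0.018 for Ccnd3 and 0.030 for Ccne2; voom on recovered reads also turned the last, to 0.0012. None of the differences between VCD and PBS passed in any alternative.

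With 1 library left out in turn, 10 uncalled differences changed sign. VCD minus PBS in MII oocytes ran from -0.051 to 0.050 for Ccna2, -0.0068 to 0.10 for Ccnd1 and -0.11 to 0.046 for Ccne2. In 2-cell embryos it ran from -0.14 to 0.071 for Ccna2, -0.076 to 0.10 for Ccnd3 and -0.038 to 0.055 for Ccne2. In morulae Ccnd3 ran from -0.0015, without VCD replicate 4, to 0.48, without VCD replicate 3. The stage difference of Ccna2 with PBS ran from -0.15 to 0.080. The difference of VCD effects ran from -0.19 to 0.10 for Ccnd1 and -0.0089 to 0.47 for Ccnd3.

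Counts over all genes between VCD and PBS changed by 1 at most. The 1 gene called in MII oocytes became 0 with a pseudocount of 0.1, no filter, a 5 FPKM filter or voom. The 1 called in morulae became 0 with a 5 FPKM filter or voom, and 0 to 1 with 1 library left out. The 0 in 2-cell embryos became 1 with array weights and 0 to 1 with 1 library left out. The 0 for the difference of VCD effects became 1 with a pseudocount of 0.1, 2 with no filter and 0 to 2 with 1 library left out. With a 5 FPKM filter 7502 genes were called between stages with PBS and 7482 with VCD, beside 12011 and 11994, with fewer genes tested.

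The labels do not say whether library codes shared by PBS and VCD groups pair the libraries. Same-code correlations of deviations ran from -0.33 to -0.11 in MII oocytes, -0.15 to 0.16 in 2-cell embryos and -0.05 to 0.38 in morulae. In that order of stages 0, 1 and 2 of 4 pairs matched best. With 4 same-code pairs per stage these values cannot decide whether the libraries are paired. With the code as a replicate block 0 genes were called in MII oocytes, 1 in 2-cell embryos and 1 in morulae, with 0 members in each. Depth limits Ccna1 and Ccnd2 in 2-cell embryos, at 11 and 36 reads over 8 libraries.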
